A study of Mus musculus with 2 samples.

Results

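The genes described here are those of the mouse epidermal differentiation complex on chromosome 3 and of the S100a family that flanks it. They were chosen by name and biotype: a gene had to be annotated as protein-coding and carry a symbol of S100a followed by a number alone, a symbol of the Sprr or Lce families, or be Lor, Ivl, Flg, Flg2, Hrnr, Rptn, Tchh, Tchhl1 or Crnn. This gave 57 genes out of 21474 protein-coding genes and 43346 gene rows in all. S100a7a, whose symbol ends in a letter, is therefore not among them although it lies in the same cluster. They comprised 13 S100a genes, 14 Sprr genes, 21 Lce genes, Lor and Ivl, and 7 genes of the fused type (Crnn, Flg, Flg2, Hrnr, Rptn, Tchh and Tchhl1). Sprr2g also fits the names but is annotated as a polymorphic pseudogene and was left out, with 0 counts in both libraries.

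The RNA came from untreated limb tissue taken at embryonic day 14.5 from mouse embryos of the C57BL/6J strain, enriched for polyadenylated molecules over 200 nucleotides long and read strand by strand as paired ends. The samples formed 1 group of 2 biological replicates, each from littermates of both sexes, so there was no second condition, and the measurements are the level of each gene and its ratio between the libraries. Skin is 1 of several tissues in a limb, and nothing in the labels tells whether the replicates were separate litters, so each p-value speaks only of these samples, whose spread may be technical. The libraries held 110172148 and 103363136 estimated counts over mouse genes in replicates 1 and 2, at which 3 counts correspond to 0.0272 and 0.0290 CPM (counts scaled by library total).

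The epidermal differentiation complex is a stretch of genes that keratinocytes switch on as they leave the basal layer and build the cornified envelope, the protein shell that gives skin its barrier. Loricrin, involucrin, the small proline-rich proteins (Sprr) and the late cornified envelope proteins (Lce) are cross-linked into that shell by transglutaminases, and the fused-type proteins, among them filaggrin and trichohyalin, join an S100-like calcium-binding start to long repeats. S100 proteins are small calcium-binding EF-hand proteins, most of which work as dimers that bind other proteins, and many are made outside the epidermis too. In the mouse embryo the periderm covers the epidermis while it stratifies, and cornification comes late in gestation.

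All 57 genes lay on chromosome 3 between positions 90511034 and 93564643 (GRCm38, the mm10 assembly), a span of 3.05 Mb. Of the chosen genes, 11 S100a genes occupied 90511034 to 90695721. The 44 Sprr, Lce, Lor, Ivl and fused-type genes followed after a gap of 1.38 Mb, from 92080271 to 93471980, and S100a11 and S100a10 lay 48.5 kb beyond them.

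Start-site windows are shown for 4 of the expressed genes, chosen by their levels. S100a11 was the highest of all 57, and Lor, Sprr1a and Sprr1b were the expressed envelope genes measured most alike in both libraries. Each window runs from 250 bases before to 50 bases after a start site (RefSeq, GRCm38.p6) and is printed 5′ to 3′ in the direction of the gene. Capitals mark TATAAA, the core of a TATA box, and TGANTCA, the core to which AP-1 factors can bind.
S100a11 (chr3:93520246-93520545, + strand): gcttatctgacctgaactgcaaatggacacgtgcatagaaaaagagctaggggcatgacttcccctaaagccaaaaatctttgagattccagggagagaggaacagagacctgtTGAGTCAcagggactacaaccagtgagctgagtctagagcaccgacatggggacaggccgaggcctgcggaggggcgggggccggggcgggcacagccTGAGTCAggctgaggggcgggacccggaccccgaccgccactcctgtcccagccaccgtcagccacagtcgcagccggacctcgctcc
Lor (chr3:92083093-92083392, - strand): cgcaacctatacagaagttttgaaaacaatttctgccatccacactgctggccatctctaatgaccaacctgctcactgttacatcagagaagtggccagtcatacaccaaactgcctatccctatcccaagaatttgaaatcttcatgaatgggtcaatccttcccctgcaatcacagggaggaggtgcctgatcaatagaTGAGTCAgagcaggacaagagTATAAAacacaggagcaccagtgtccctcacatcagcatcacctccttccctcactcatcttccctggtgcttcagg
Sprr1a (chr3:92485832-92486131, - strand): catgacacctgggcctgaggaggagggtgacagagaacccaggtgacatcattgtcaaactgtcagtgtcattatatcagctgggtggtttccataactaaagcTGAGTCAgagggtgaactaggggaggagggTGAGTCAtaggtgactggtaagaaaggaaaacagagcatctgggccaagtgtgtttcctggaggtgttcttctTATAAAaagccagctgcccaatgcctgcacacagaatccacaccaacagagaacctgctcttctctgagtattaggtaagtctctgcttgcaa
Sprr1b (chr3:92438730-92439029, - strand): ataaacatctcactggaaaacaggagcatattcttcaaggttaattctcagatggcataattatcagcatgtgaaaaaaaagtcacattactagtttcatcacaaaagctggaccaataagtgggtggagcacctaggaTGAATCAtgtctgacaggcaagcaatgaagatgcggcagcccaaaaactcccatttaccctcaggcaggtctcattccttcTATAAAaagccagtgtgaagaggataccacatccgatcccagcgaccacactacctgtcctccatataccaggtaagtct

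Both motifs were searched on both strands. They cannot overlap each other, and TGANTCA reads the same on either strand. RefSeq windows were matched for 53 of the 57 genes, all but S100a2, S100a10, S100a14 and Lce1f. TATAAA occurred in 24 of their 57 windows, or 42.1%, against 13.6% of 32851 windows of all genes. TGANTCA occurred in 18 of the 57, or 31.6%, against 7.80% of all windows. Among the Sprr genes TATAAA was found in 10 and TGANTCA in 9 of 14 windows. Among the fused-type genes TATAAA was found in 4 and TGANTCA in 5 of 7. Lor and Ivl had both motifs. Among the 20 Lce windows TATAAA was found in 4 and TGANTCA in 0. Of the 14 windows of S100a genes 4 held TATAAA and 2 held TGANTCA, with TGANTCA in S100a16 and S100a11. Neither motif separated expressed from silent genes: Sprr2b, Sprr2d, Sprr2e and Sprr2i carry both and had 0 counts in both libraries. A match to these letters is a description of the window and not a bound site.

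Expression of the complex was uneven, with abundant S100a transcripts at its flanks and little from the envelope genes between them. Of the 57 genes 14 reached 1 TPM (abundance per unit of transcript length, as a share of the library) in both libraries, against 62.8% of all protein-coding genes. These were 10 of 13 S100a genes, 3 of 14 Sprr genes (Sprr1a, Sprr1b and Sprr2a2) and Lor. None of the 21 Lce genes and none of the 7 fused-type genes did. By position, 8 of 11 genes of the S100a cluster, 4 of the 44 genes in the middle and both of S100a11 and S100a10 passed. At the other end 23 genes had 0 counts in both libraries and 12 more had fewer than 10 counts in either.

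**Figure D1:**
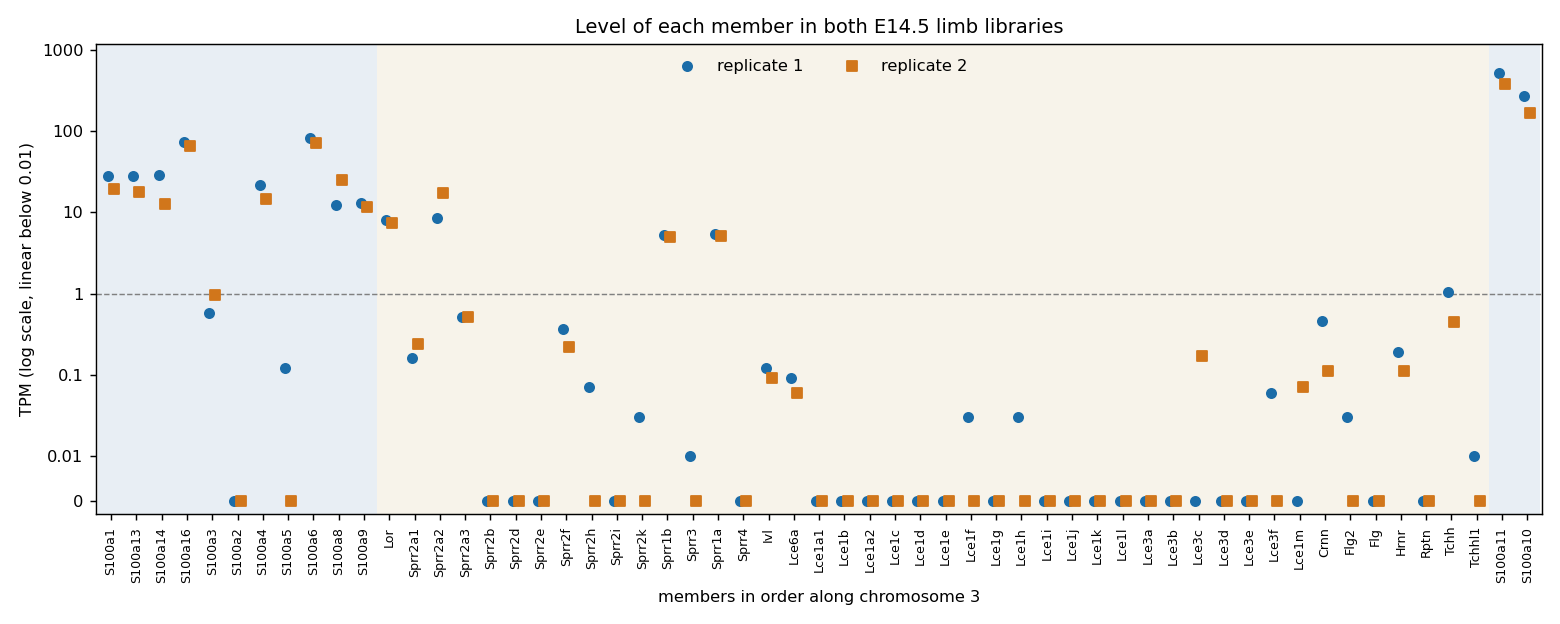
Level in TPM (vertical, log scale, linear below 0.01) of the 57 genes in their order along chromosome 3 (horizontal), with a circle for replicate 1 and a square for replicate 2. Shading separates the S100a genes at both ends from the 44 genes between them, and the dashed line marks 1 TPM. S100a11 and S100a10 at the right end are the highest, and 4 genes in the middle, Lor, Sprr2a2, Sprr1b and Sprr1a, lie above the line in both libraries.

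Summed over the family, S100a transcripts reached 1093.76 TPM in replicate 1 and 801.54 TPM in replicate 2. That was 97.29% and 95.57% of the TPM of all 57 genes (mean 96.4% ± 1.22, SD, n = 2). Sprr transcripts summed to 20.32 and 28.74 TPM, Lor and Ivl to 8.19 and 7.44 TPM, fused-type genes to 1.74 and 0.66 TPM and Lce genes to 0.21 and 0.30 TPM. S100a11 and S100a10 alone made up 71.44% and 66.73% of the TPM of the 57 genes. All 57 genes together took 0.0344% of the counts of replicate 1 (95% Wilson interval 0.0341 to 0.0348) and 0.0240% of those of replicate 2 (0.0237 to 0.0243). Such intervals and the floors given below cover counting error only.

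S100a11 (ENSMUSG00000027907.4, chromosome 3, 93520488 to 93526287, + strand) encodes a dimer that binds annexin A1 and is found in many epithelia. It had 530.52 TPM in replicate 1 and 390.03 TPM in replicate 2 (460 ± 99.3, SD, n = 2), rank 231 among all protein-coding genes. Part of its transcript is repeated elsewhere in the genome. Of the windows of 1 read length in its transcript, 33.82% also occur in other genes, and its counts of 12417.19 and 7758.60 were not whole, a sign of reads divided between genes. The processed pseudogene Gm12854, 1 of its copies, received 14.81 and 4.40 counts.

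S100a10 (ENSMUSG00000041959.10, 93555080 to 93564643, + strand) encodes p11, the partner of annexin A2, which unlike most of its family does not bind calcium. It stood at 272.60 and 169.65 TPM in replicates 1 and 2 (221 ± 72.8, SD, n = 2) with 9931 and 5432 counts, all whole. Both of its values lay below both of S100a11, whose TPM was 1.95 and 2.30 times as high. Anxa2, which encodes annexin A2, had 632.53 and 498.77 TPM, or 2.32 and 2.94 times the TPM of S100a10. Anxa1 had 60.26 and 28.77 TPM.

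S100a6 and S100a16 came next in the order of levels. S100a6 (90612882 to 90624181, + strand), or calcyclin, which is made in many proliferating and mesenchymal cells, had 83.60 and 72.57 TPM (78.1 ± 7.80, SD, n = 2). S100a16 (90537254 to 90543151, + strand), a broadly expressed member, had 73.72 and 66.66 TPM (70.2 ± 4.99, SD, n = 2). S100a6 was the higher in each library, by 1.13 and 1.09 times in TPM, although the ranges over both libraries overlapped. Both genes were below both values of S100a10. Cacybp, the calcyclin-binding protein gene, stood at 50.31 and 28.53 TPM.

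A further 6 S100a genes lay between 11.63 and 28.84 TPM. S100a1, best known from heart and skeletal muscle, had 27.91 and 19.26 TPM (23.6 ± 6.12, SD, n = 2). S100a13, which takes part in the release of FGF1, had 28.32 and 17.70 TPM (23.0 ± 7.51, SD, n = 2). S100a14, a member made mainly in epithelia, had 28.84 and 12.86 TPM (20.9 ± 11.3, SD, n = 2). Their ranges overlapped, and S100a14 varied most between the libraries.

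S100a1 and S100a13 start head to head. Their start sites, at 90514330 on the - strand and 90514435 on the + strand, are 105 bases apart, so that 204 bases of their start-site windows are the same sequence. The ratio of S100a13 to S100a1 in TPM was 1.01 in replicate 1 and 0.919 in replicate 2. Fgf1 was itself low, at 0.83 and 0.96 TPM.

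S100a4, known from motile mesenchymal cells and able to bind non-muscle myosin, had 21.96 and 14.70 TPM (18.3 ± 5.13, SD, n = 2). Its level is less certain, since 41.82% of the read-length windows of its transcripts also occur in another GENCODE M21 gene. That gene has no row among the deposited genes, so no reads were divided with it. The deposited counts of S100a4, 490 and 279, were whole, which therefore tells nothing of this sharing. Myh9, the non-muscle myosin heavy chain gene, had 38.87 and 31.60 TPM. S100a8 and S100a9 encode the subunits of calprotectin, abundant in neutrophils and induced in stressed keratinocytes. S100a8 had 12.49 and 25.51 TPM (19.0 ± 9.21, SD, n = 2). S100a9 had 13.11 and 11.63 TPM (12.4 ± 1.05, SD, n = 2). The subunit genes were about level in replicate 1, with a ratio of S100a8 to S100a9 of 0.953, and apart in replicate 2, with a ratio of 2.19. Of the receptors that calprotectin is known to engage, Ager had 10.16 and 10.75 TPM and Tlr4 0.63 and 0.80 TPM.

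The other 3 S100a genes did not reach 1 TPM in both libraries. S100a3, known from the hair cuticle, had 0.57 and 0.97 TPM on 22 and 33 counts, just below the threshold in replicate 2 only. S100a5 had 2 and 0 counts, and S100a2 had 0 in both. For S100a2 the 3 counts that a 0 allows correspond to 0.342 and 0.476 TPM. Of S100 genes outside the chosen names, S100b had 16.69 and 17.55 TPM, S100a7a 1.03 and 1.25 TPM and S100g 1.38 and 0.51 TPM.

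Among the precursors of the envelope, Lor (ENSMUSG00000043165.7, 92080271 to 92083142, - strand) was clearly expressed and Ivl was not. Loricrin is the main protein of the mature envelope, and its coding sequence here consists of 55.35% glycine and 22.22% serine codons. Lor had 8.07 TPM in replicate 1 and 7.35 TPM in replicate 2 (7.71 ± 0.509, SD, n = 2) on 956 and 797 counts. Ivl, the gene of involucrin, an early envelope protein with 26.71% glutamine codons, had 0.12 and 0.09 TPM on 15 and 11 counts. Krt10, a keratin of the suprabasal layers, exceeded Lor 24.6 and 14.3 times in TPM.

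Of the small proline-rich genes above 1 TPM, Sprr1a and Sprr1b were the most alike in level. Their proteins cross-bridge other envelope proteins, and proline makes up 31.94% and 30.72% of their codons. Sprr1a (92483952 to 92485895, - strand) had 5.40 and 5.19 TPM (5.29 ± 0.148, SD, n = 2) on 246 and 210 counts. Sprr1b (92436809 to 92438789, - strand) had 5.28 and 5.00 TPM (5.14 ± 0.198, SD, n = 2) on 250 and 211 counts. Their ranges overlapped, with a ratio of 1.02 and 1.04, and both genes stayed below both values of Lor. All of these counts were whole, and their TPM differed less between the libraries than that of any other gene above 1 TPM among the 57.

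Sprr2a2 was the highest Sprr gene by the deposited split of reads, but that split is uncertain. The gene (ENSMUSG00000068893.5, 92215920 to 92256724, + strand) overlaps Sprr2a1 (92215799 to 92221911, + strand) in the annotation, and Sprr2a3 lies next to them at 92285417 to 92291405. Their coding sequences (GENCODE M21 transcripts, stop codon left out) are 249 bases long. That of Sprr2a1 is identical to that of Sprr2a2, with 0 bases different, and both differ from Sprr2a3 at 3 bases, an identity of 98.8%. They are printed 5′ to 3′ to show how little there is to tell the copies apart, with capitals at the bases that differ.
Sprr2a2: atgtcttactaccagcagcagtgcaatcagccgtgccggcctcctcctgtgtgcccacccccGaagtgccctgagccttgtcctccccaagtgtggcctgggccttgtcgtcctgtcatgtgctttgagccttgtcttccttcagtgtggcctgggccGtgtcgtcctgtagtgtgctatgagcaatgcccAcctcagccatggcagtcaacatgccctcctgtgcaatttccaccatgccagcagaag
Sprr2a3: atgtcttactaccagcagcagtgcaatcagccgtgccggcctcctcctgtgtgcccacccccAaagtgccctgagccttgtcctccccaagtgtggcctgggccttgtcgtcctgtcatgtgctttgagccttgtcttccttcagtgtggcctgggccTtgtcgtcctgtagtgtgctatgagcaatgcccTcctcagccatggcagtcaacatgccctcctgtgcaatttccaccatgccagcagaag

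Of the windows of 1 read length in their transcripts, 92.74% of those of Sprr2a2, 92.42% of those of Sprr2a1 and 35.80% of those of Sprr2a3 were shared with another gene. The counts of all 3 were not whole. Sprr2a2 had 8.49 and 17.58 TPM (13.035 ± 6.43, SD, n = 2), Sprr2a1 0.16 and 0.24 TPM, and Sprr2a3 0.52 and 0.51 TPM. The deposited tables thus gave Sprr2a2 53.1 and 73.2 times the TPM of Sprr2a1, although these genes have the same coding sequence. The sum of counts over the 3 copies does not depend on how reads were divided among them, and it was 392 in replicate 1 and 705 in replicate 2. The summed level was 9.17 and 18.33 TPM. Unlike the counts, this level does depend on the split, because the deposited effective lengths differ. In replicate 1 they were 523.06 bases for Sprr2a2 and 2804.05 for Sprr2a1.

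The remaining Sprr genes were near or at 0. Sprr2f had 0.36 and 0.22 TPM on 11 and 6 counts. Sprr2h had 3 and 0 counts, Sprr2k and Sprr3 had 1 and 0 each, and Sprr2b, Sprr2d, Sprr2e, Sprr2i and Sprr4 had 0 in both. For Sprr4 the depth cannot show an expression of 1 TPM: its annotated transcript is so short that 3 counts correspond to 1.15 and 2.48 TPM. For the other 22 of the 23 genes with 0 counts the same limit was below 1 TPM in both libraries, between 0.00925 and 0.476 TPM.

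The Lce genes were close to silent as a family. Their proteins are late components of the envelope, with cysteine making up 8.64% to 22.96% of their codons. All 21 genes together received 6 counts in replicate 1 and 8 in replicate 2. Lce3c had 0 and 4 counts, Lce1m 0 and 3, Lce6a 2 and 1, Lce3f 2 and 0, and Lce1f and Lce1h 1 and 0 each. The other 15 had 0 in both libraries. Lce3c, Lce3d, Lce3e and Lce3f share 23.98% to 42.86% of their read-length windows with other genes.

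The fused-type genes were low as well, with Tchh and Hrnr holding most of their counts. Tchh, the gene of trichohyalin, a protein of the inner root sheath of hair follicles, had 1.05 and 0.44 TPM (0.745 ± 0.431, SD, n = 2) on 443 and 172 counts, above 1 TPM in replicate 1 only. Crnn, the gene of cornulin, known from stratified squamous epithelia such as the oesophagus, had 0.46 and 0.11 TPM on 43 and 11 counts. Hrnr, the hornerin gene, had 0.19 and 0.11 TPM on 154 and 84 counts. Flg2 had 6 and 0 counts and Tchhl1 1 and 0. Flg and Rptn had 0 counts in both libraries.

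Few other genes within the span were expressed. Of 17 further protein-coding genes between the outermost S100a genes, 3 reached 1 TPM in both libraries and 9 had 0 counts in both. The 3 were Gm9774, whose counts were not whole, at 6.26 and 5.07 TPM, Crct1 at 1.21 and 1.11 TPM and S100a7a.

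Enzymes and partners of the envelope were expressed in part, and all listed regulators of epidermal differentiation were expressed. In a list of 12 cornified envelope partners and enzymes, 7 were at 1 TPM or more in both libraries, a share close to the 62.8% of all protein-coding genes. Tgm5, Csta1, Cdsn, Klk7 and Spink5 were not. The highest were Dmkn at 125.07 and 100.90 TPM, Asprv1 at 28.98 and 16.20 TPM and Tgm1, the transglutaminase that cross-links the envelope, at 14.34 and 12.03 TPM. The desmosome-linked envelope proteins had 12.71 and 7.15 TPM for Ppl and 6.82 and 4.92 TPM for Evpl. Of 10 regulators of epidermal differentiation all 10 passed, led by Klf4 at 47.42 and 53.33 TPM. Grhl3 had 17.15 and 14.01 TPM and Zfp750 10.63 and 8.77 TPM. The basal and suprabasal epidermal markers passed in 8 of 8 cases, with a summed level of 1472.29 and 1031.03 TPM. The periderm and simple epithelium markers passed in 5 of 5, with a sum of 105.27 and 55.16 TPM, and the limb markers in 6 of 6, with 320.54 and 403.28 TPM. None of the markers of these 3 lists was at 0.

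Of the 14 expressed genes 7 had several annotated transcripts, and the leading transcript was the same in both libraries in all 7. In 4 of these it held over 90% of the gene's TPM in both. The exceptions were S100a9, S100a14 and S100a16. S100a16-202 held 65.49% and 62.55%, and S100a16-201 20.66% and 31.44%. For S100a14, S100a14-202 held 88.49% and 80.58%. For S100a9, S100a9-201 held 81.60% and 86.86%. The share of S100a16-201 was the one that differed most between the libraries among these.

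**Figure D2:**
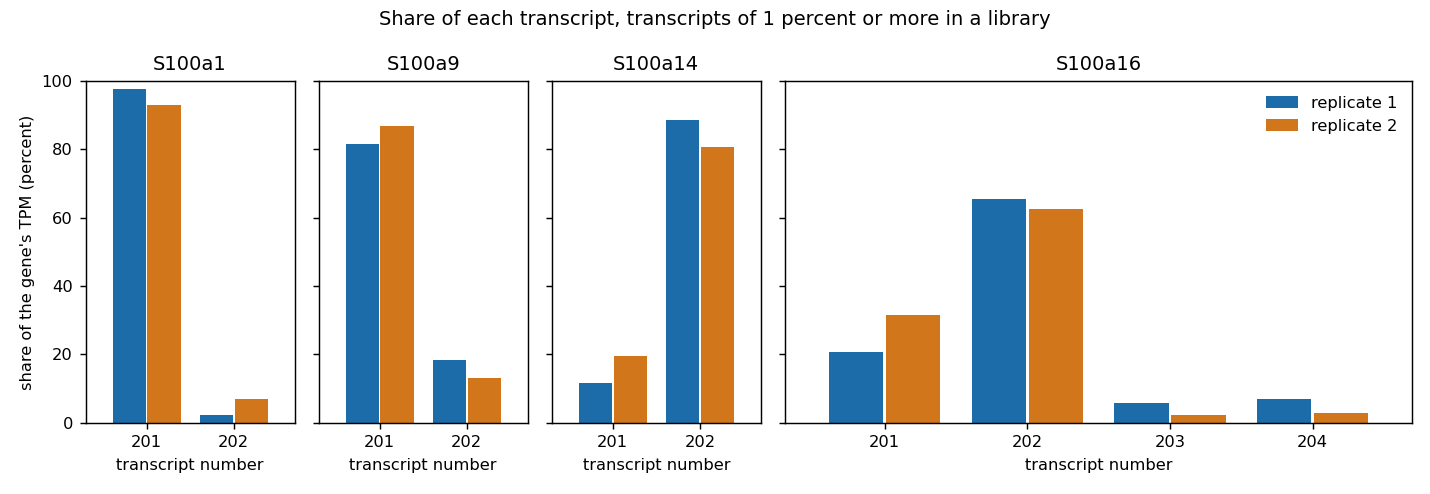
Share of each transcript in the TPM of its gene (vertical, percent) for S100a1, S100a9, S100a14 and S100a16 in replicate 1 (blue, left bar) and replicate 2 (orange, right bar), by transcript number (horizontal). Transcripts under 1% in both libraries are left out. S100a16 divides its TPM most widely, with S100a16-202 at 65.49% and 62.55%.

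The libraries differed in these genes, mostly toward higher S100a counts in replicate 1. Counts were compared library against library with an exact two-sided binomial test that allows for counting noise only, over 20396 genes whose counts summed to 10 or more. It compares these libraries, not conditions. Across all genes 30.2% were called higher in replicate 1 and 30.3% higher in replicate 2, 60.5% in all, so a call against counting noise alone was common. Of the 22 tested genes of the complex, 12 were called higher in replicate 1 and 3 higher in replicate 2. The 12 are 54.5% of the 22, above the background share, and the 3 are 13.6%, below it. Of the 11 S100a genes tested 9 were called higher in replicate 1 and 1, S100a8, higher in replicate 2. The median log2 ratio of replicate 1 over replicate 2 was 0.31 for the 22 genes and 0.56 for the S100a genes, against 0.01 for all genes tested.

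S100a14 had 1902 counts in replicate 1 and 753 in replicate 2, a log2 ratio of 1.22 (adjusted p = 1.6e-93, exact binomial test). Of the 15008 tested genes that averaged 1 TPM or more, 1.61% lay at least as far from 0. S100a10 had a log2 ratio of 0.76, S100a13 0.75, S100a4 0.70, S100a1 0.62 and S100a11 0.56. S100a9, S100a6 and S100a16 differed less, with log2 ratios of 0.29, 0.27 and 0.12. The ratio of S100a16 was reached or passed by 70.3% of the same genes. The fused-type genes tested were also higher in replicate 1, with log2 ratios of 1.81 for Crnn, 1.25 for Tchh and 0.76 for Hrnr.

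Counts ran the other way in S100a8, Sprr2a2 and Sprr2a3. S100a8 had 181 and 296 counts, a log2 ratio of -0.82 (adjusted p = 2.84e-09, exact binomial test). Sprr2a2 had 332.91 and 610.70 counts, a log2 ratio of -0.99 (adjusted p = 4.35e-24, exact binomial test). Sprr2a3 had a log2 ratio of -0.95 in counts but 0.03 in TPM, because its deposited effective length was 669.20 bases in replicate 1 and 1305.38 in replicate 2, so its direction is not settled. Lor, Sprr1a, Sprr1b, Ivl, S100a3, Sprr2a1 and Sprr2f were not called. Among those not called, Lor had a log2 ratio of 0.15, Sprr1b 0.13 and Sprr1a 0.11. On lower counts, S100a3 had -0.69, Sprr2a1 -0.62, Sprr2f 0.72 and Ivl 0.32. A test that also allows for the spread seen between the libraries, edgeR's negative binomial exact test with a common dispersion, called 0 of the 22 genes. Its lowest adjusted p among them was 0.136. At an unadjusted p under 0.05 were 4 of the 22 (S100a14, Sprr2a2, Crnn and Tchh), against 6.29% of all genes tested. At an adjusted p under 0.05 the background of that test was 0.775% of genes higher in replicate 1 and 0.270% higher in replicate 2.

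**Figure D3:**
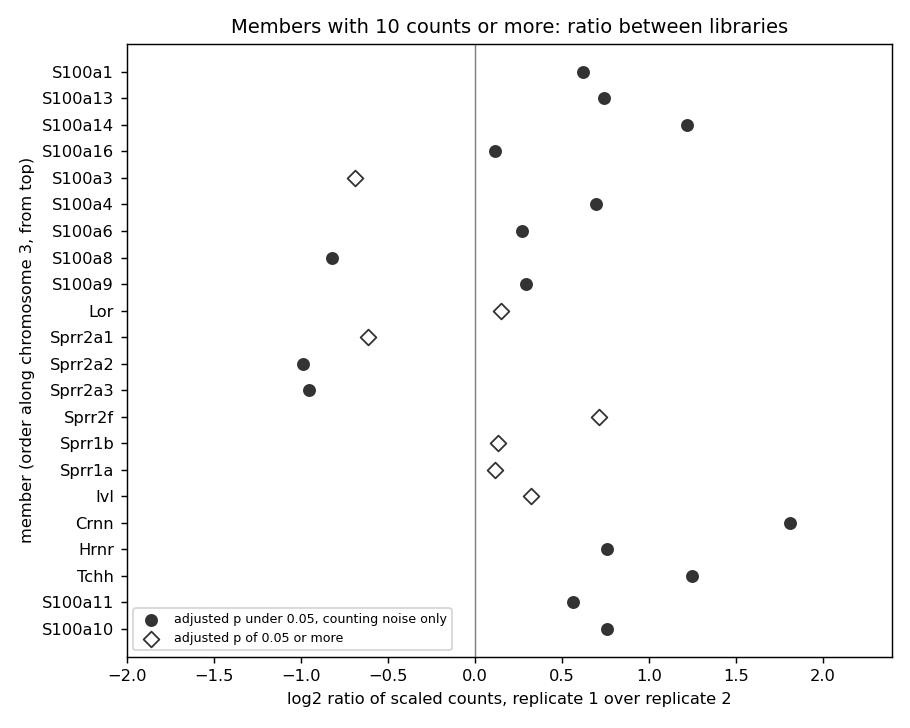
Log2 ratio of scaled counts, replicate 1 over replicate 2 (horizontal), of the 22 genes tested, in order along chromosome 3 from the top. Filled circles have an adjusted p under 0.05 in the binomial test that allows for counting noise only, and open diamonds do not. S100a8, Sprr2a2 and Sprr2a3 are the filled points left of 0, and Lor, Sprr1b and Sprr1a lie close to 0.

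Most markers of the skin were also higher in replicate 1 by the binomial test, which called 30.2% of all genes in that direction. It called 7 of 8 basal and suprabasal epidermal markers higher in replicate 1, with a median log2 ratio of 0.62, and the exception was Trp63 with a log2 ratio of 0.00. All 5 markers of periderm and simple epithelium were called higher in replicate 1, with a median of 0.70, led by Krt19 at 61.62 and 24.87 TPM and Krt8 at 7.19 and 3.29 TPM. Of the 12 envelope partners and enzymes 9 were called higher in replicate 1 and 1, Cdsn, higher in replicate 2, with a median of 0.65. The negative binomial test called 0 genes of these 3 lists. Of the 10 regulators of epidermal differentiation 6 were called higher in replicate 1 and 2, Klf4 and Prdm1, higher in replicate 2, with a median of 0.19. Chondrocyte markers had a median log2 ratio of -0.24, limb markers -0.29, macrophage markers -0.18 and skeletal muscle markers 0.07. The muscle median hides a split list. The binomial test called 3 of its 5 markers higher in replicate 1 and 1, Actc1, higher in replicate 2. Tnnt3 had 93.93 and 31.97 TPM and Myh3 159.46 and 91.51 TPM, while Myog had 136.78 and 132.13 TPM. The negative binomial test called 1 muscle marker, Tnnt3, higher in replicate 1. The part of these shifts in the ratios of the S100a genes was not tested. In tissue of several cell types, fewer cells of a type and less RNA per cell cannot be told apart.

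Neutrophil granule genes were higher in replicate 2, as S100a8 was and S100a9 was not. Of the 8 genes of that list, 4 were at 1 TPM or more in both libraries and none was at 0. Their summed level was 13.87 TPM in replicate 1 and 31.16 TPM in replicate 2, and 7 of the 8 were called higher in replicate 2, against 30.3% of all genes, with a median log2 ratio of -1.29. Ctsg was not called, with a log2 ratio of 0.45. Camp had 1.27 and 6.80 TPM, Mpo 0.91 and 2.69 TPM and Elane 0.31 and 1.61 TPM. The negative binomial test also called these 3 higher in replicate 2, against 0.27% of all genes. Camp rested on 38 and 177 counts and Elane on 17 and 78. The highest, Prtn3, had 8.58 and 14.15 TPM. Macrophage markers were detected in 7 of 7 cases, with sums of 143.49 and 168.93 TPM. The part of these cells in the S100a8 ratio was not tested.

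**Figure D4:**
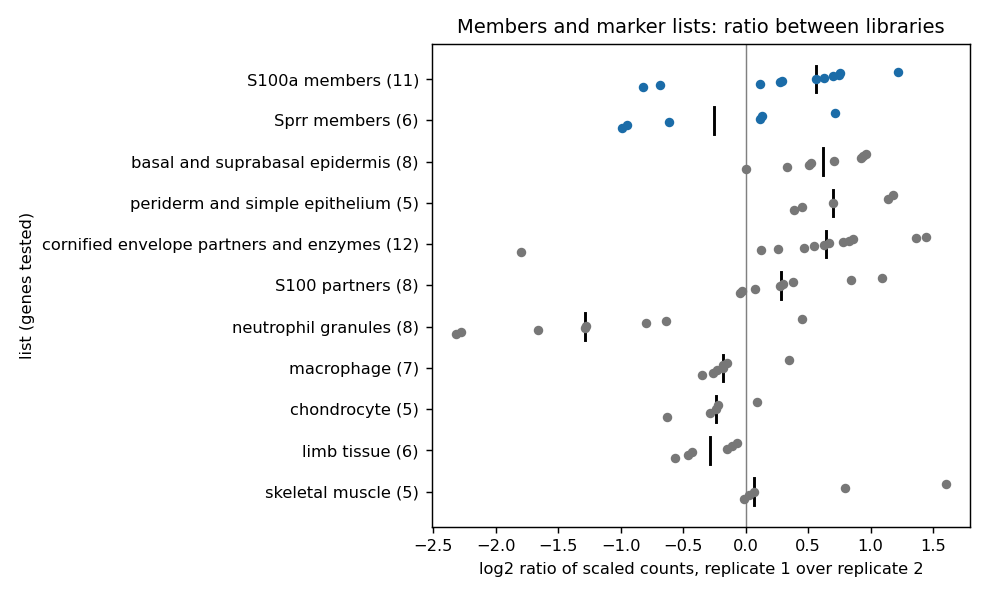
Log2 ratio of scaled counts, replicate 1 over replicate 2 (horizontal), for the tested S100a and Sprr genes (blue) and for marker and partner lists (grey), 1 point a gene, with the number of tested genes in brackets and a bar at each median. The medians are 0.56 for the S100a genes, -0.25 for the Sprr genes and 0.285 for the S100 partners. Of the 6 Sprr genes, the copies Sprr2a1, Sprr2a2 and Sprr2a3, which share reads, lie left of 0. Sprr1a, Sprr1b and Sprr2f lie right of it. Those of the epidermal, periderm and envelope lists are 0.62, 0.70 and 0.65, and the neutrophil granule list has the lowest, -1.29.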

How the data were processed

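Per the text files deposited with the tables, the authors quantified each library against mm10 with GENCODE M4. Which program did so is not stated in the sources used. Per the file headers, the deposited gene tables hold expected counts (reads estimated per gene, shared reads divided), TPM and posterior mean TPM. The deposited transcript tables add the percent of each gene's TPM held by a transcript. Values were used as deposited. Symbols, gene types and positions were taken from GENCODE M21 by stable identifier, and 884 of 43346 rows had no match.

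Library sizes exclude the ERCC, phiX and tRNA rows. ERCC rows took 2.39% and 2.36% of all deposited counts. Genes under 10 rounded expected counts over both libraries were not tested. Library sizes were scaled by TMM (edgeR 4.0.16, R 4.3.3; factors 1.01 and 0.993), ratios had a prior count of 0.5, and the exact binomial p was adjusted by Benjamini-Hochberg over 20396 genes at 0.05 (scipy 1.17.1). The edgeR negative binomial test used a common dispersion of 0.0366, estimated from these libraries. DESeq2 1.42.0 gave size factors for an alternative. The binomial test was checked on simulated counts with counting noise only, which cannot show how it behaves with further spread between libraries. Counts within 0.005 of a whole number were called whole. The members, lists and tests were chosen with earlier results of these data known. Named were all members averaging 1 TPM or more, other members with 10 counts, the highest genes of each list and partners of members.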

Additional observations from a re-analysis of the deposited data

How the results depend on the processing

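The 14 genes at 1 TPM or more became 16 at 0.5 TPM, 14 at 2 TPM, 14 with posterior mean TPM and 21 at 10 counts or more in each library. The share of TPM held by the S100a genes, 96.4%, became 92.2% in expected counts. Chosen after seeing the data, it was 88.6% without S100a10 and S100a11 and 97.9% without Sprr2a1, Sprr2a2 and Sprr2a3. The median level of the S100a genes, 20.9 TPM, was 7.41 CPM without length scaling, which is another unit. The 15 of 22 tested genes called between the libraries became 0 with edgeR's negative binomial test. At an unadjusted p under 0.05 that test had 4, against 6.29% of all genes. With DESeq2 size factors 15 of 22 were called, against 60.5% of all genes. Library totals and ERCC sums each gave 16 of 22, against 60.3%. With no filter 15 of 34 were called, against 50.4%, and at 100 counts 14 of 16, against 70.9%. Lor was called with ERCC sums (log2 ratio 0.16, adjusted p = 0.0351, exact binomial test). The log2 ratio of Sprr2a3 was 0.028 in TPM against -0.95 in counts. Those of S100a11 and S100a10 were smaller in TPM, at 0.444 and 0.684 against 0.564 and 0.757 in counts, with the same direction. Without 1 replicate or the other, 14 to 15 genes were detected, the median S100a level was 17.7 to 27.9 TPM, the S100a share 95.6% to 97.3%, and the leading transcript was the same in 7 to 7 genes. No paired analysis was possible because there is 1 group. Depth limits Sprr4, for which 1 TPM was not detectable.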
